A study of Homo sapiens with 6 samples.

Results

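KEAP1, NFE2L2, STK11 and MYC are 4 genes of the pathways that mark the lung adenocarcinoma line A549, and they were taken by symbol from the deposited table of 29476 genes. Each symbol matched 1 row, and all 4 genes passed the filter on low counts. RNA sequencing had measured 6 libraries of A549 cells, an established human line, after lipid transfection with either of a pair of siRNAs. The si-NC group (3 libraries, numbered 4, 5 and 6) received a negative control siRNA, and the si-NORAD group (3 libraries, numbered alike) received an siRNA against NORAD, a long noncoding RNA that binds Pumilio proteins. All 6 libraries share the line and the transfection, and an untransfected control is not analysed here. The sources used here give neither the siRNA sequences nor the time of harvest. Whether libraries of 1 group were separate cultures is not labelled either, so every p-value reflects the spread between libraries, which may be technical. Values per library are always given in the order 4, 5, 6.

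KEAP1 is the substrate adaptor of a CUL3 ubiquitin ligase. It holds the transcription factor NRF2, the product of NFE2L2, at a low level until oxidants or electrophiles modify it, after which NRF2 binds antioxidant response elements with small MAF proteins and switches on detoxifying enzymes. STK11 encodes LKB1, a kinase that works with the STRAD and MO25 proteins to activate AMPK and its related kinases. MYC is a transcription factor that pairs with MAX and drives genes of ribosome assembly, nucleotide synthesis and growth. A549 is known to carry a KEAP1 missense allele and a truncating STK11 allele. Gene counts do not separate alleles and say nothing of the proteins.

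The 6 libraries held 19332334 to 32760606 counts, and the 4 genes had 1719 to 7783 counts per library. At the lowest of these counts, 1 standard deviation of counting error (Poisson) is 2.41%. NORAD, the targeted RNA, was at 550, 461 and 423 CPM with si-NC, against 359, 372 and 400 CPM with si-NORAD. CPM are counts scaled to the library size adjusted by TMM. The log2 fold change of NORAD was -0.34 (edgeR adjusted p = 0.196), a fall of 21.1% that was not called. Its si-NC 4 value lay furthest from si-NORAD and its si-NC 6 value nearest. Markers of the line were abundant, with a mean FPKM (reads scaled by gene model length and library size) over the 6 libraries of 1624 for ALDH1A1, 926 for AKR1B10, 479 for KRT7, 453 for KRT8 and 401 for KRT18, and EPCAM was at 1.85. The defining markers of alveolar type 2 cells were near 0, with SFTPC at 0.060, SFTPB at 0.021, NKX2-1 at 0.231 and NAPSA at 0.737 FPKM. The extraction text in the labels speaks of retina, and the photoreceptor genes RCVRN, CRX and SAG were at 0.0083 FPKM or less, with PDE6A at 0.325. The highest fibroblast marker was COL1A1 (0.934 FPKM), the highest leukocyte marker CD68 (0.0145) and the highest endothelial marker PECAM1 (0.0124). Libraries si-NC 5 and si-NC 6 stood apart from the other 4, and values without them, or without si-NC 4, stand beside the results of the 4 genes and of the lists.

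The 4 genes were searched for a pair of short sequence elements, the Pumilio element bound by the partners of NORAD and the antioxidant response element bound by NRF2. The Pumilio element was searched as TGTANATA on the sense strand of the longest annotated 3′ UTR (GENCODE 29, GRCh38). KEAP1 held 1 such match in a 3′ UTR of 532 bases, MYC held 2 in 476 bases, and NFE2L2 and STK11 held 0 in 901 and 859 bases. The motif was present in 29.6% of the 12950 tested genes with a 3′ UTR, and in 12.7% of genes whose 3′ UTR is within 10% of the length of that of KEAP1 and 9.48% of those similarly close to MYC. With the stricter TGTATATA, all 4 genes had 0 matches. The KEAP1 match lies on the minus strand within chr19:10486220-10486249 and is shown with the motif in capitals because it is the only match among KEAP1, NFE2L2 and STK11.
KEAP1 3′ UTR element: agggatgggccTGTACATAgaagccaccgg

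The antioxidant response element was searched as TGACNNNGC on both strands of RefSeq promoter windows (250 bases before to 50 after each start, GRCh38.p14). Windows were found for 3 of the 4 genes, KEAP1, NFE2L2 and STK11. One of the 2 KEAP1 windows held 2 matches, centred 50 and 27 bases before the start site and facing opposite ways, at chr19:10502807-10502835 (minus strand) and chr19:10502784-10502812 (plus strand). The 2 windows of NFE2L2 and the 1 window of STK11 held none. Of all 35116 windows 13.3% had a match, as did 19.5% of tested genes in any window and 10 of the 24 NRF2 target genes with a window. The KEAP1 matches are set beside matches of GCLM (chr1:93909446-93909474, plus strand) and ME1 (chr6:83431170-83431198, minus strand), both NRF2 targets. Capitals mark each match to TGACNNNGC, of which only TGAC and GC are common to all. ME1 held another match, centred 15 bases after the start site, which is not shown.
KEAP1 minus strand: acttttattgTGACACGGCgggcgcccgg
KEAP1 plus strand: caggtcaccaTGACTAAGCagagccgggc
GCLM: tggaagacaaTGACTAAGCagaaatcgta
ME1: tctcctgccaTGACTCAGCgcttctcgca
The plus-strand match of KEAP1 has the same 9 letters as that of GCLM. These matches are letters in a window, and no binding was measured.

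All 4 genes were well expressed in A549, with MYC the most abundant. Per length of the gene model that the authors used, MYC was at 77.6 ± 3.39 FPKM (SD, n = 3) in si-NC and 78.9 ± 2.26 FPKM in si-NORAD, which ranks it 460 of 29476 genes by the mean over the 6 libraries. KEAP1 was at 25.8 ± 2.04 and 23.6 ± 1.40 FPKM (rank 1822), NFE2L2 at 16.0 ± 0.591 and 15.01 ± 0.457 FPKM (rank 2929), and STK11 at 11.7 ± 1.497 and 11.4 ± 0.165 FPKM (rank 3841). This order held in each of the 6 libraries, and within a library MYC was 2.73 to 3.68 times KEAP1, KEAP1 1.40 to 1.73 times NFE2L2, and NFE2L2 1.17 to 1.51 times STK11.

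The order of the lower 3 depended on the gene model. The lengths behind the deposited FPKM are 8.64 kb for STK11, 5.98 kb for NFE2L2, 3.76 kb for KEAP1 and 3.00 kb for MYC, whereas the longest basic transcripts with an APPRIS tag (a mark of main isoforms) are 2.78, 2.85, 2.96 and 2.37 kb long. Had every read come from those transcripts, the level over the 6 libraries would be 33.3 to 41.8 reads per kb, scaled as the FPKM, for STK11, 30.7 to 35.0 for NFE2L2 and 27.97 to 34.7 for KEAP1. Those 3 ranges overlap, with the mean of STK11 (36.02) above those of NFE2L2 (32.5) and KEAP1 (31.4). MYC stayed above them at 94.3 to 103. Which transcripts the cells use cannot be read from gene counts.

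**Figure D1:**
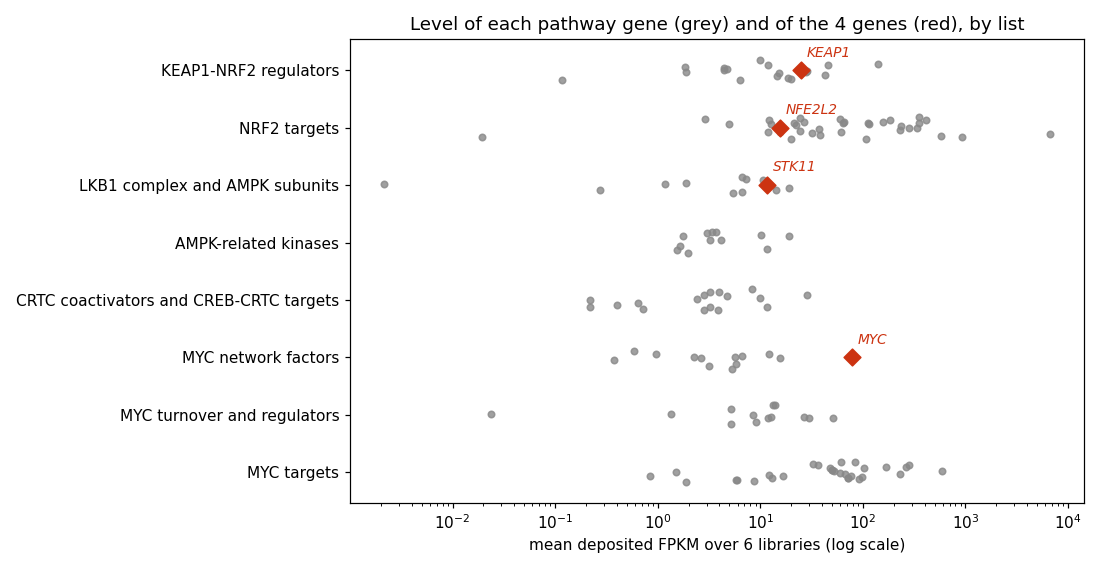
Mean deposited FPKM over the 6 libraries (log scale) for every gene of 8 pathway lists (grey points) and for KEAP1, NFE2L2, STK11 and MYC (red diamonds, drawn on the row of a related list but not members of it). MYC lies above every MYC network factor, and NFE2L2 lies below most NRF2 targets.

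None of the 4 genes passed the test of si-NORAD against si-NC, in which NORAD itself was not called. With edgeR's quasi-likelihood test and Benjamini-Hochberg adjustment over 15515 genes, 0 of the 4 were called at an adjusted p under 0.05, where 0.00645% of all genes were called (1 gene, TPM4). None had an unadjusted p under 0.05 either, where 21.6% of all genes did. Nor did DESeq2 call any of the 4, where it called 4% of the 10618 genes it gave an adjusted p (1.05% higher and 2.95% lower). The same held for edgeR with no low-count filter, which called 6.56% of 29476 genes. Later shares of DESeq2 calls are also of those 10618 genes. All 4 fitted changes pointed down, and all 4 of their 95% intervals exclude a change of 1.5-fold in either direction. The groups did not overlap in CPM for 1 of the 4, NFE2L2, which was lower in si-NORAD. Such a separation, with the si-NORAD libraries lower, was seen in 12.7% of all genes tested, and a separation in either direction in 25.4%.

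**Figure D2:**
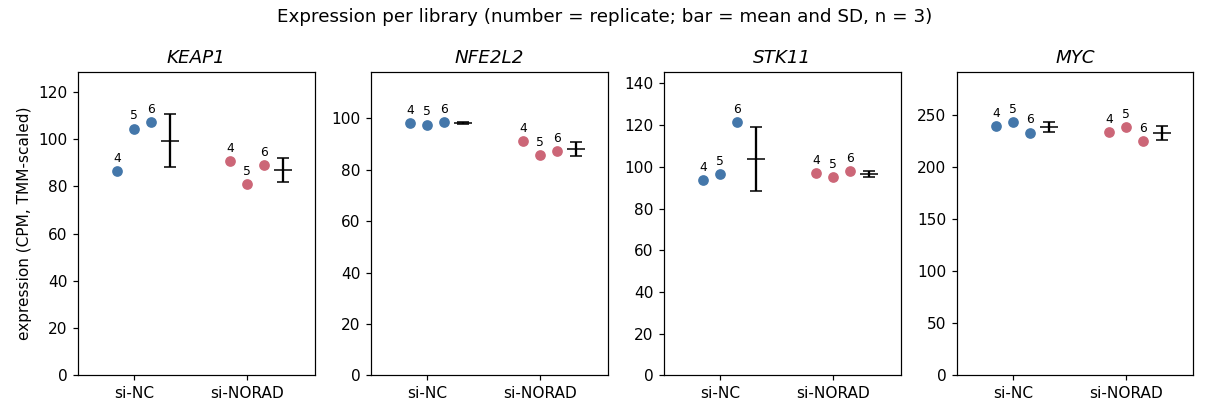
CPM (TMM-scaled) of KEAP1, NFE2L2, STK11 and MYC in each library, with the replicate number over each point and the mean and SD (n = 3) as a black bar. The si-NORAD points of NFE2L2 all lie below its si-NC points, STK11 has a single high point in si-NC 6, and KEAP1 has high points in si-NC 5 and 6.

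NFE2L2 (ENSG00000116044, minus strand, chr2:177227595-177392697) was the gene with the tightest control values. It was at 98.0, 97.5 and 98.3 CPM with si-NC, against 91.1, 85.8 and 87.1 CPM with si-NORAD. The highest si-NORAD library lay below the lowest si-NC library, in CPM and in the deposited FPKM (14.6 to 15.5 against 15.6 to 16.7). The group means were 98.0 ± 0.399 and 88.0 ± 2.76 CPM (SD, n = 3 each), and the log2 fold change was -0.15 (SE 0.07, 95% interval -0.31 to 0.0051, edgeR adjusted p = 0.242). NFE2L2 was as far below si-NC 4 (0.16 on the log2 scale) as below the mean of si-NC 5 and 6 (0.15). The fold change was negative in all 19 alternatives (-0.19 to -0.09), and the adjusted p ran from 0.049 to 0.571. The -0.19 came from the fit with the length trend removed, which takes 5.98 kb as the length of NFE2L2. The 0.049 came from the fit without si-NC 4, which called 39.3% of all genes (19% higher, 20.3% lower). The smallest changes, -0.09, came from the fits on the deposited FPKM, which use no TMM scaling. The median over all genes tested was 0.04 to 0.05 in those fits, against 0.0055 in edgeR with TMM.

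The annotated span of NFE2L2 overlaps 11 other genes, 5 of them on the opposite strand. The sources used here do not say whether reads were counted by strand. The overlapping protein-coding gene AGPS was at 12.7 FPKM with a log2 fold change of 0.11 (edgeR adjusted p = 0.498). The antisense RNA AC079305.1, within that span, was at 0.393 FPKM, and AC019080.2, AC019080.3 and AC019080.4 were at 0.0604, 0.0373 and 0.0599 FPKM.

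KEAP1 (ENSG00000079999, minus strand, chr19:10486120-10503741) differed mainly among the control libraries. It was at 86.5, 104 and 107 CPM with si-NC, against 90.8, 81.0 and 89.1 CPM with si-NORAD. The si-NC 4 library lay among the si-NORAD libraries, while si-NC 5 and 6 lay above all of them. The group means were 99.3 ± 11.2 and 86.9 ± 5.24 CPM (SD, n = 3 each), and the log2 fold change was -0.19 (SE 0.10, 95% interval -0.42 to 0.03, edgeR adjusted p = 0.28). Without si-NC 4 KEAP1 was lower and passed (-0.28, adjusted p = 0.00352, in a fit that called 20.3% of all genes as lower), and without si-NC 5 and 6 its direction turned (0.011, 1 control library, no test). It was -0.13 once the length trend was taken out. With the deposited FPKM plus 1, where the median over all genes tested was 0.04, KEAP1 was at -0.12. The adjusted p ranged from 0.00352 to 0.581 over the alternatives.

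The ratio of KEAP1 to NFE2L2 counts within a library does not depend on library scaling. It was 0.883, 1.07 and 1.09 with si-NC, against 0.996, 0.944 and 1.02 with si-NORAD. The means were 1.01 ± 0.114 and 0.988 ± 0.0401 (SD, n = 3 each), and the si-NORAD ratios lay within the si-NC range.

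The other regulators of the KEAP1 and NRF2 axis gave 0 calls among 18 tested, with 9 higher and 9 lower and a median log2 fold change of 0.0093, against 0.0055 over all genes tested. Leaving out si-NC 5 and 6 gave 10 higher and 8 lower (median 0.0029), and leaving out si-NC 6 alone 7 and 11 (median -0.03). SQSTM1, an autophagy receptor that sequesters KEAP1, had the highest level of the list (142 FPKM) and a log2 fold change of -0.09. NFE2L1, an NRF2 relative that controls proteasome genes, was at 246 ± 27.4 CPM in si-NC and 291 ± 10.7 in si-NORAD (0.24, edgeR adjusted p = 0.211). Its si-NC libraries were at 273, 248 and 218 CPM, with si-NC 4 the nearest to the si-NORAD values of 290, 280 and 302 CPM. RBX1, the RING subunit of the KEAP1 ligase, was at 42.0, 57.2 and 61.9 CPM with si-NC, against 38.3, 39.4 and 35.1 CPM with si-NORAD. Its groups did not overlap, which held for 2 lower genes and 1 higher gene of the list, where 12.7% of all genes are in each class. The adjusted p of RBX1 was 0.196 in edgeR (log2 fold change -0.51). DESeq2, which called 2.95% of all genes lower, called RBX1 (-0.52, adjusted p = 0.0296). RBX1 was -0.16 without si-NC 5 and 6. CUL3, the ligase scaffold, had a log2 fold change of 0.07, and MAFG, a small MAF partner of NRF2, 0.08.

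Genes that NRF2 activates had lower values in si-NORAD more often than higher ones, and 0 of 34 tested passed. Of them 27 were lower and 7 higher, with a median log2 fold change of -0.15. The median was -0.08 once the length trend was taken out (22 lower, 12 higher) and likewise with the deposited FPKM plus 1 (23 lower, 11 higher). The median over all genes tested was 0.04 in that FPKM fit, which uses no TMM scaling. The groups did not overlap in 10 lower genes and 1 higher gene, where 12.7% of all genes are in each class. FTL, a ferritin subunit, was the most abundant at 6701 FPKM (log2 fold change -0.25, edgeR adjusted p = 0.27), followed by the aldo-keto reductase AKR1B10 (-0.14), thioredoxin TXN (-0.50, adjusted p = 0.196) and ferritin heavy chain FTH1 (-0.06). TXN was at 602, 823 and 939 CPM with si-NC, against 564, 572 and 531 CPM with si-NORAD. HMOX1, which breaks down heme, was at 29.7, 30.9 and 34.4 CPM with si-NC, against 25.3, 25.3 and 25.4 CPM with si-NORAD (-0.32, adjusted p = 0.196). The groups of TXN and HMOX1 did not overlap. Against si-NC 4 alone, FTL was at 0.01, AKR1B10 at 0.11, FTH1 at 0.04, TXN at -0.12 and HMOX1 at -0.23 (log2), so the first 3 turned.

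The direction of this list rested on si-NC 5 and 6. Centred on the 6-library mean, its median was -0.09, 0.06 and 0.24 (log2) with si-NC, against -0.07, -0.10 and -0.04 with si-NORAD. KEAP1 had the same order in si-NC, at -0.10, 0.17 and 0.21, whereas NFE2L2 was at 0.08, 0.07 and 0.08. Without si-NC 5 and 6 the list's median was -0.0083, with 16 genes higher and 18 lower. DESeq2, which called 4% of all genes (2.95% lower), called 2 of these genes (TXN and BLVRB, both lower). In the edgeR fit that drops si-NC 4, 21 were called lower and 4 higher, 25 in all, in a fit that called 20.3% of all genes lower and 19% higher. Near-identical aldo-keto reductase genes such as AKR1C1 and AKR1C2 can share reads, so their counts are uncertain.

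**Figure D3:**
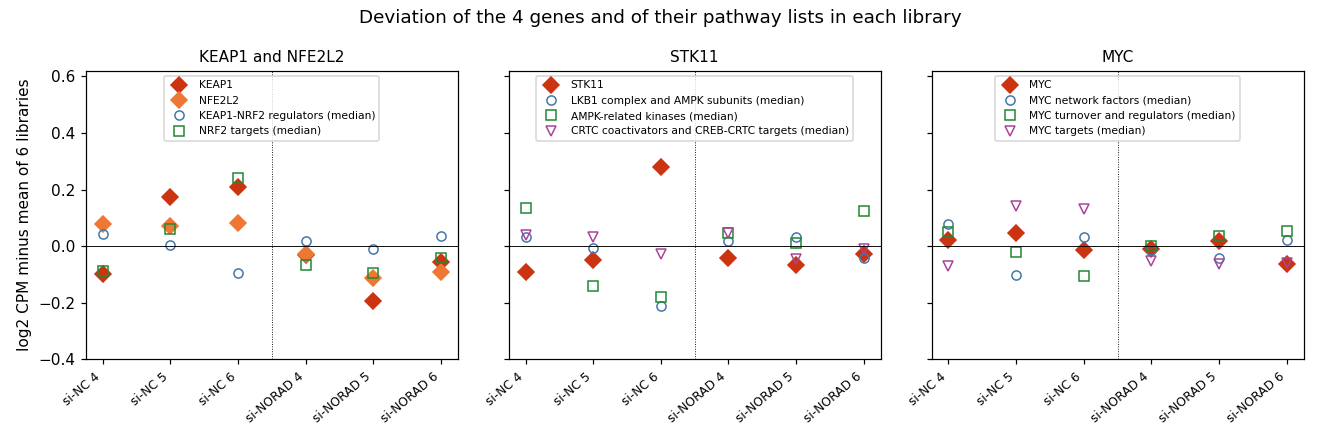
Log2 CPM minus the mean of the 6 libraries for KEAP1, NFE2L2, STK11 and MYC (diamonds) and for the medians of their pathway lists (open symbols), in each library. STK11 stands at 0.28 in si-NC 6, while the list of LKB1 complex and AMPK subunits stands at -0.21 there.

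STK11 (ENSG00000118046, plus strand, chr19:1177558-1228435) differed in 1 control library. It was at 93.8, 96.4 and 121 CPM with si-NC, against 96.9, 95.2 and 98.0 CPM with si-NORAD. Apart from si-NC 6, the libraries lay between 93.8 and 98.0 CPM. The group means were 104 ± 15.2 and 96.7 ± 1.41 CPM (SD, n = 3 each), and the log2 fold change was -0.10 (SE 0.10, 95% interval -0.34 to 0.13, edgeR adjusted p = 0.563). The direction turned without si-NC 6 (0.02, adjusted p = 0.891) and without si-NC 5 and 6 (0.04). It was -0.17 without si-NC 4, -0.15 without si-NC 5 and -0.23 once the length trend was taken out. That trend was fitted on the lengths behind the deposited FPKM, which is 8.64 kb for STK11 against a transcript of 2.78 kb. With the deposited FPKM plus 1, where the median over all genes tested was 0.04, STK11 was at -0.03. At its 3′ end STK11 overlaps CBARP on the opposite strand, which was at 1.86 FPKM with a log2 fold change of -0.12.

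None of the genes for partners and substrates of LKB1 passed the test. CAB39, which encodes the scaffold MO25, was at 14.2 FPKM with a log2 fold change of 0.11, and the ratio of STK11 to CAB39 counts was 1.204, 1.28 and 1.83 with si-NC, against 1.25, 1.18 and 1.25 with si-NORAD. The high ratio in si-NC 6 follows the STK11 value there. Of 10 tested genes of the LKB1 complex and AMPK, 6 were higher and 4 lower (median log2 fold change 0.07). That direction turned without si-NC 5 and 6, to 3 higher and 7 lower (median -0.04), and without si-NC 6 alone there were 5 in each direction (median -0.01). PRKAA1, the more abundant AMPK catalytic subunit, was at 19.1 FPKM (0.11), and PRKAA2 at 1.90 FPKM (0.33, edgeR adjusted p = 0.207). The regulatory subunits PRKAG1 and PRKAG2 had log2 fold changes of -0.23 and -0.14 with groups that did not overlap. Such a separation was seen in 2 lower genes and 1 higher gene of this list, where 12.7% of all genes are in each class. STRADA, the pseudokinase that activates LKB1, was counted at only 0.272 FPKM (2.22 ± 0.612 and 3.65 ± 0.683 CPM, log2 fold change 0.71, adjusted p = 0.196).

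Of the 12 other kinases that LKB1 activates, 11 were higher and 1 lower (median log2 fold change 0.13), with 0 called. NUAK2 (19.2 FPKM, log2 fold change 0.10), MARK2 (0.11) and MARK3 (-0.06) had the highest levels, and the smallest p belonged to SIK3, a salt-inducible kinase (0.32, edgeR adjusted p = 0.227). Without si-NC 5 and 6 the list turned, with 3 higher and 9 lower and a median of -0.04. Among 17 CRTC coactivators and genes that CREB and CRTC induce when these kinases are inactive, 8 were higher and 9 lower (median -0.02) and 0 were called. Leaving out si-NC 5 and 6 gave 4 higher and 13 lower there (median -0.05). TESC, a calcium-binding protein, was at 18.1, 21.1 and 30.03 CPM with si-NC, against 16.0, 14.9 and 14.7 CPM with si-NORAD (-0.60, adjusted p = 0.196). Its si-NC 4 value was the nearest to si-NORAD and its si-NC 6 value the highest. The groups of TESC did not overlap, a separation seen in 2 lower genes and 1 higher gene of this list, where 12.7% of all genes are in each class. DESeq2, which called 2.95% of all genes lower, called TESC (adjusted p = 0.0373). AVPI1 (-0.17), CRTC2 (0.04) and PDE4D (0.18) had the other high levels of this list. The fit that drops si-NC 4, which called 39.3% of all genes, called 6 genes each of the complex and kinase lists and 8 of the CRTC list.

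MYC (ENSG00000136997, plus strand, chromosome 8, positions 127735434 to 127741434 of GRCh38) was the most even of the 4 genes relative to its level. It was at 239, 242 and 233 CPM with si-NC, against 233, 238 and 225 CPM with si-NORAD. The groups overlapped, and the 6 libraries spanned 225 to 242 CPM. The group means were 238 ± 4.86 and 232 ± 6.66 CPM (SD, n = 3 each), and the log2 fold change was -0.04 (SE 0.07, 95% interval -0.20 to 0.12, edgeR adjusted p = 0.775). Against the mean of the si-NORAD libraries, si-NC 4 was 0.04 higher (log2), and si-NC 5 and 6 together were 0.03 higher. The sign turned in 4 alternatives, to 0.02 in the 3 fits on the deposited FPKM and to 0.07 once the length trend was taken out. The FPKM fits use no TMM scaling, and the median over all genes tested was 0.04 to 0.05 in them, above MYC. No alternative called MYC (lowest adjusted p = 0.576). GENCODE places no other gene over MYC.

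MYC exceeded every factor of its network in level, and none of those factors passed. MAX, its obligate partner, was at 12.1 FPKM with a log2 fold change of -0.16 (edgeR adjusted p = 0.321), and the ratio of MYC to MAX counts was 4.81, 4.04 and 3.84 with si-NC, against 4.61, 4.64 and 4.48 with si-NORAD. The groups of this ratio overlapped through si-NC 4, and MAX turned to 0.03 without si-NC 5 and 6. Of 12 network factors, 6 were higher and 6 lower, also without si-NC 5 and 6 (medians -0.0064 and 0.0092), with MLX (15.6 FPKM, -0.09) the next most abundant, and the repressors of MYC sites MXD4 (0.14) and MXI1 (-0.05) behind it. MLXIP, which pairs with MLX (0.40, adjusted p = 0.198), and MGA, a repressor that pairs with MAX (0.37, adjusted p = 0.207), had the smallest p. Among 12 genes of MYC turnover and control, 8 were higher and 4 lower, with 0 called, and the list turned to 5 higher and 7 lower (median -0.02) without si-NC 5 and 6. HUWE1, a ubiquitin ligase for MYC, was at 512, 368 and 261 CPM with si-NC, against 573, 523 and 544 CPM with si-NORAD (0.52, adjusted p = 0.207). The si-NORAD libraries all lay above the si-NC libraries, as they did for 12.7% of all genes tested. The si-NC libraries differed among themselves, and without si-NC 5 and 6 the change of HUWE1 was 0.09. AURKA, a mitotic kinase that stabilises MYC proteins, had -0.24 (adjusted p = 0.198), FUBP1 0.07, PIM1 -0.11 and the neighbouring noncoding RNA PVT1 0.07.

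Genes that MYC activates had lower values more often than higher ones, and 0 of 30 passed. Of them 22 were lower and 8 higher, with a median log2 fold change of -0.13, and the groups did not overlap in 6 lower and 3 higher genes, where 12.7% of all genes are in each class. The nucleolar genes NPM1 (586 FPKM, -0.27, edgeR adjusted p = 0.217) and FBL (-0.32), the lactate dehydrogenase LDHA (-0.24) and the chaperone HSPD1 (-0.08) were the most abundant. Against si-NC 4 alone, FBL and HSPD1 turned (0.02 and 0.10), while NPM1 and LDHA were at -0.05 and -0.15. NOLC1, a nucleolar phosphoprotein, went the other way. It was at 301, 297 and 280 CPM with si-NC, against 430.4, 429.7 and 427 CPM with si-NORAD (0.55, SE 0.07, adjusted p = 0.11). Both groups of NOLC1 were tight and far apart. It passed in DESeq2 (adjusted p = 2.29e-09, 1.05% of all genes called higher) and once the length trend was taken out (adjusted p = 0.014, 0.0387% of all genes called). DESeq2 called 2 genes of the list in all, 1 higher and 1 lower, where it called 2.95% of all genes lower. The median fold change of the list was -0.08 once the length trend was taken out and -0.06 with the deposited FPKM plus 1. The median over all genes tested was 0.04 in that FPKM fit. Centred on the 6-library mean, the median of the list was -0.07, 0.14 and 0.13 (log2) with si-NC and lay between -0.06 and -0.05 in si-NORAD. MYC itself was at 0.02, 0.05 and -0.01 with si-NC. Without si-NC 5 and 6 the list had 15 genes higher and 15 lower. The fit that drops si-NC 4 called 22 of them, 17 as lower and 5 as higher, where it called 20.3% of all genes lower and 19% higher.

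**Figure D4:**
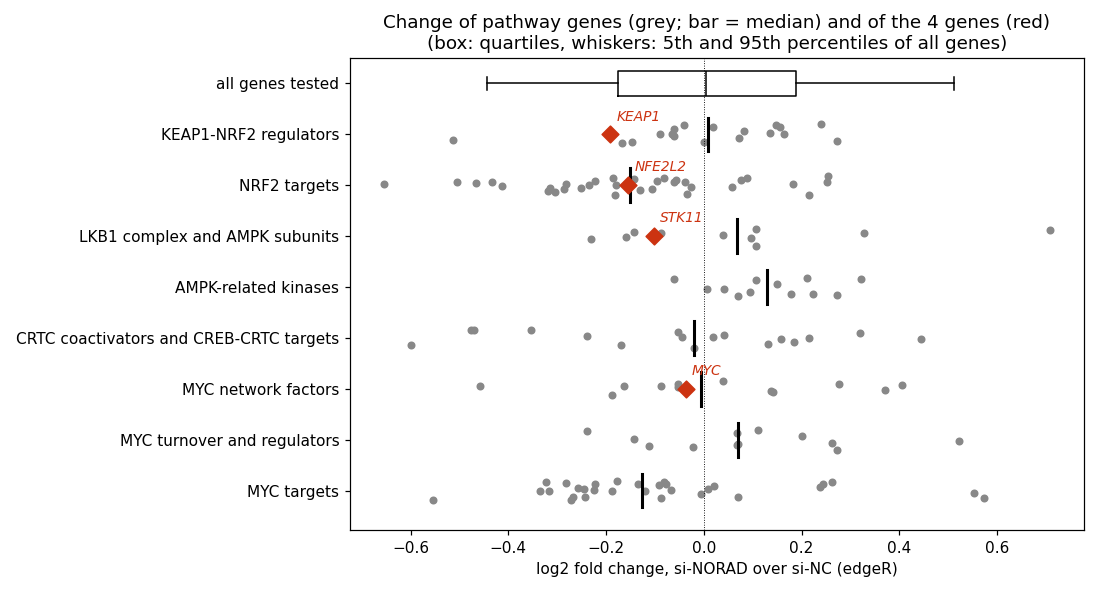
Log2 fold change of si-NORAD over si-NC for the tested genes of each pathway list (grey points, median as a black bar), for KEAP1, NFE2L2, STK11 and MYC (red diamonds on the row of a related list), and for all genes tested (box with quartiles, whiskers at the 5th and 95th percentiles). The 4 genes lie between -0.19 and -0.04, inside the whiskers of all genes.

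**Figure D5:**
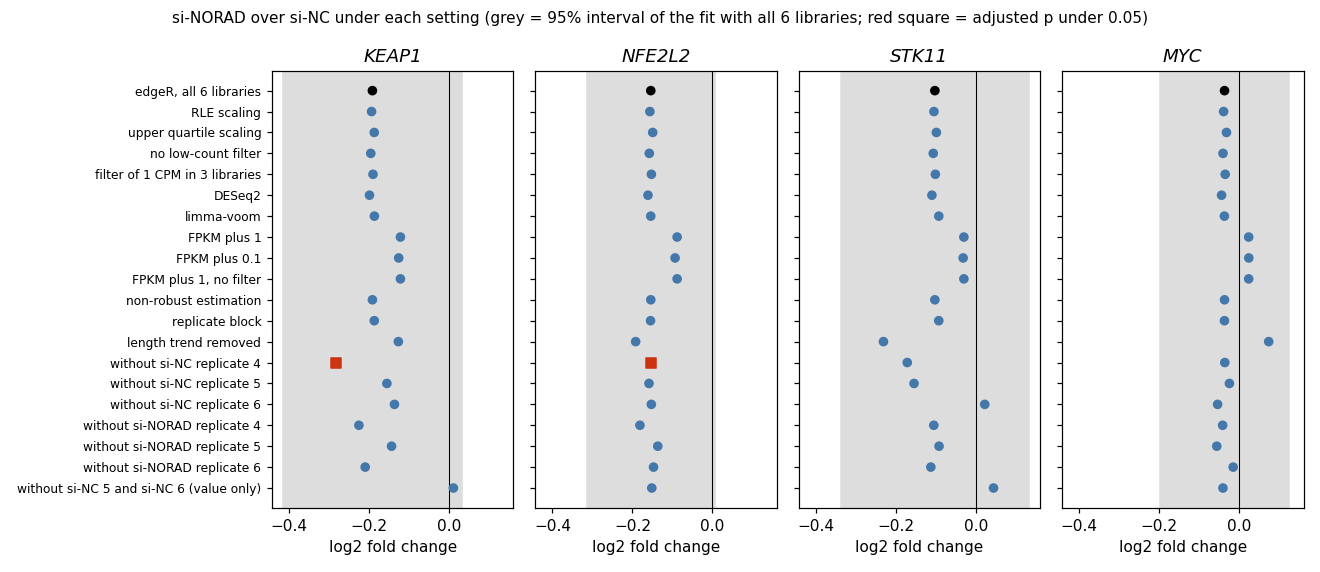
Log2 fold change of each gene under each setting, with the 95% interval of the fit with all 6 libraries in grey and red squares for an adjusted p under 0.05. KEAP1 and NFE2L2 passed only without si-NC replicate 4, and KEAP1, STK11 and MYC changed sign under some settings.

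The genes whose log2 CPM followed each of the 4 most closely over the 6 libraries differed between them. For KEAP1 they were PPM1B (Pearson r = 0.999), EVA1A (0.995) and VPS18 (0.994), and 239 of 10927 genes with at least 5 CPM exceeded 0.95. For STK11 they were TM7SF2 (0.999), HEXDC (0.997) and AC022613.1 (0.996), with 71 genes above 0.95. For NFE2L2 they were ALDOC (0.992), UBE2K (0.989) and RASSF1 (0.985), with 39 such genes, and for MYC HS1BP3 (0.991), SLC35E3 (0.984) and ZSCAN26 (0.972), with 7. In each correlation the points are the same 6 libraries in the same treatment groups, and the genes were picked from many for their likeness.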

How the data were processed

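For 29476 genes in 6 libraries the authors deposited raw read counts (whole numbers) and FPKM values. The tools named in the submitters' processing notes are FastQC, HISAT2 and HTSeq 0.6.1, with GRCh38 as the build; no strand setting is stated there. Dividing the count by the deposited FPKM returned a single gene length in 100% of cases (tolerance 0.1%). All IDs are in GENCODE 29. Libraries were grouped by title, with 0 columns of other samples. The members and lists were chosen with earlier results of these data known.

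The test on the counts was made with edgeR 4.0.16 under R 4.3.3 (filterByExpr, TMM, robust quasi-likelihood F test, two-sided, no covariates, 15515 genes, adjusted p under 0.05), a fit checked on simulated data. Intervals are 95% and use the moderated degrees of freedom. The 8 pathway lists hold 151 entries. Members, NORAD, called genes, the 4 most abundant and the 2 with the smallest p in each list, genes over a member on the other strand and the 3 most alike genes (mean of at least 5 CPM) were taken for naming. Some genes taken by the rule are left out, and CUL3, PVT1, BLVRB, NR4A2, NR4A3, EIF4A1, PPAN, AKR1C1, AKR1C2 and the genes compared for motifs were chosen after their values were seen. Alternatives were RLE or upper quartile scaling, no filter, 1 CPM in 3 libraries, DESeq2 1.42.0, limma 3.58.1 (voom, or log2 of FPKM plus 1 or 0.1, at least 0.5 FPKM in 3 libraries or unfiltered), non-robust estimation, a replicate block, the length trend removed (loess, span 0.3), each library left out, and si-NC 5 and 6 left out. The length trend was fitted on the gene lengths implied by the deposited FPKM, and the fits on FPKM used no TMM. The 3′ UTR was the longest of the basic transcripts. Figures used Python 3.11.15 and matplotlib 3.10.9.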

Additional observations from a re-analysis of the deposited data

How the results depend on the processing

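Over 19 alternatives for each of the 4 genes, the sign turned for KEAP1 with si-NC 5 and 6 left out (log2 fold change 0.011), for STK11 without si-NC 6 (0.022) and with si-NC 5 and 6 left out (0.044), and for MYC with the deposited FPKM plus 1 (0.024, with or without the filter), plus 0.1 (0.024) and the length trend removed (0.074). It turned in none for NFE2L2. The fits on the deposited FPKM use no TMM scaling, and the median over all genes tested was 0.04 to 0.05 in them. Leaving out 1 library at a time gave -0.28 to -0.14 for KEAP1, -0.18 to -0.14 for NFE2L2, -0.17 to 0.02 for STK11 and -0.06 to -0.02 for MYC. KEAP1 and NFE2L2 passed in 1 of these fits, without si-NC 4 (adjusted p = 0.00352 and 0.049). The cause was not tested.

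The count of genes called, 1 in edgeR with all 6 libraries, was 1935 without the low-count filter, 425 in DESeq2, 3 with FPKM plus 1 and plus 0.1, 6 with the length trend removed and 0 to 6251 with 1 library left out. With the replicate number as a block it was 2, and the block changed no call for the 4 genes or the lists. The numbers are shared across groups, but same-numbered libraries did not deviate together (correlations of -0.03, -0.02 and -0.07), so they were not taken as pairs. In the lists edgeR with the filter called 0 genes. Without the filter, where 6.56% of all genes were called, it called 1 KEAP1-NRF2 regulator, 8 NRF2 targets and 1 gene of the LKB1 complex. It also called 2 CRTC genes, 2 MYC network factors, 1 gene of MYC turnover and 6 MYC targets. DESeq2, which called 4% of all genes, called 1, 2, 0, 1, 0, 0 and 2 genes in that order. With the length trend removed, where 0.0387% of all genes were called, 1 MYC target passed. With 1 library left out the counts ran from 0 to 8, 25, 6, 8, 5, 4 and 22 in that order. For the AMPK-related kinases they ran from 0 to 6. Each upper value came from the fit without si-NC 4, which called 39.3% of all genes.

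Depth did not limit the 4 genes, whereas STRADA and the CREB targets NR4A2 and NR4A3 rest on few reads, with 34, 24 and 11 counts in si-NC 6.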

Other observations

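The NRF2 target list held a subgroup with higher values in si-NORAD. The export pumps ABCC1, ABCC2 and ABCC3, which move glutathione conjugates and organic anions out of cells, had log2 fold changes of 0.18, 0.25 and 0.22, and the cystine transporter SLC7A11 had 0.25. They were chosen after their values were seen, and none passed in edgeR with all 6 libraries (adjusted p = 0.284, 0.253, 0.219 and 0.319). All 4 passed as higher without si-NC 4 (log2 fold changes of 0.28, 0.40, 0.29 and 0.43), in a fit that called 6251 genes (19% of all genes as higher). They were picked for their high values from a list with 7 higher and 27 lower genes, so their passing adds no support. Without si-NC 5 and 6 the 4 genes were at 0.0090, 0.0028, 0.07 and -0.05. Some list members had low deposited FPKM, among them the translation factor EIF4A1 at 1.497, the nucleolar gene PPAN at 0.840 and STRADA at 0.272. Whether these values reflect the RNA level or the way reads were counted was not tested.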
